A study of Homo sapiens with 8 samples.

Results

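ZNF genes of chromosome 19 carried more H3K4me1 peak coverage in ARID1A knockout than in control cells when all listed peaks were counted. The knockout to control ratio of covered bases was 1.44, against 0.910 over the other genes of that chromosome. With only stronger peaks, those of −log10 q of at least 5, the ratios were 1.80 and 0.988. With peaks of at least 4-fold enrichment they were 1.30 and 0.703. At both cutoffs, fewer ZNF genes than all genes had at least 1000 more bases in the knockout list. The shares were 21.7% against 26.7% at the q cutoff and 5.83% against 14.5% at the fold cutoff. The ZNF genes were picked as a set with earlier results of these data known. Membership of the set was by name alone: protein-coding RefSeq symbols of ZNF followed by digits, with the record on chromosome 19 of GRCh38. This gave 240 of the 19974 protein-coding genes on chromosomes 1 to 22 and X, beside 1211 other genes on chromosome 19. Records ran from 2469 to 487995 bases. H3K4me1, monomethylation of lysine 4 of histone H3, marks enhancers and the flanks of active start sites. It was mapped by ChIP-seq, chromatin immunoprecipitation followed by sequencing, in the cell line MDA-MB-231, an established triple-negative breast cancer line, as a control genotype and as an ARID1A knockout. Each genotype had 2 immunoprecipitated and 2 input samples and no treatment is named. ARID1A encodes the DNA-binding subunit of canonical SWI/SNF remodellers. The sources used here do not say whether the knockout is a single clone. The protocol text names an H3K4me3 antibody whereas titles and antibody label give H3K4me1, the name kept here.

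C2H2 zinc finger proteins bind DNA through tandem fingers, each folded around a zinc ion. Many of those encoded on chromosome 19 also carry a KRAB domain, which recruits the co-repressor TRIM28 and the histone methyltransferase SETDB1. KRAB zinc finger proteins are best known for silencing retroelements. Their genes arose by repeated local duplication and sit in dense clusters of related copies. In many cell types the bodies of these genes, above all the finger-coding 3′ exon, carry the repressive mark H3K9me3, while their start sites stay open.

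The deposited data were 1 list of peaks per genotype, immunoprecipitate over input, with 82994 control and 73600 knockout peaks on chromosomes 1 to 22 and X. On chromosome 19 there were 2477 and 2234. The depth behind the lists is unknown. Because replicates were not listed apart, all differences below describe these 2 lists, and no test across replicates could be run. Peak coverage of a gene is the number of bases under peaks within its record plus 5000 bases on either side, and a gene was called higher or lower in the knockout list at a difference of at least 1000 bases. The windows of 112 of the 240 genes overlapped that of another ZNF gene of the chromosome, so neighbours can share peaks. Exact 95% intervals given with percentages cover counting error over genes or peaks only, and neighbouring genes are not independent.

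Of the 240 genes, 96 were higher in the knockout list (40%, 95% exact interval 33.8 to 46.5) and 22 were lower (9.17%, 5.83 to 13.5). Over all protein-coding genes 20.2% were higher and 30.0% were lower, so the ZNF genes differed from the background in both directions. The other 1211 genes of chromosome 19 were higher in 16.4% and lower in 25.5%. Among the 237 ZNF genes of other chromosomes, 26.6% were higher and 23.6% lower, closer to an even split. The remaining 122 chromosome 19 ZNF genes differed by less than 1000 bases, and 33 of these had no peak in either list. The median difference, knockout minus control, was 486.5 bases over the ZNF genes and 0 over the other genes of the chromosome and over all genes. Summed over the windows with shared bases counted once, the lists covered 388004 (control) and 557689 (knockout) bases, a ratio of 1.44. Over the windows of the other chromosome 19 genes it was 4319028 and 3930334, a ratio of 0.910.

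**Figure D1:**
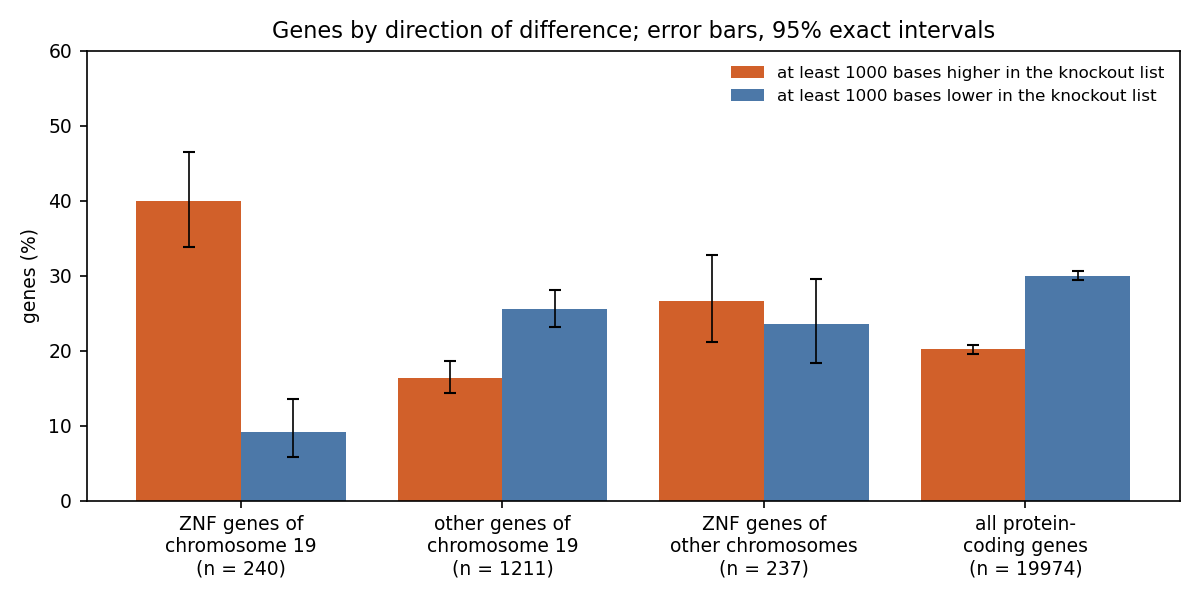
Percent of genes (y axis) at least 1000 covered bases higher (orange) or lower (blue) in the knockout list, for 4 sets of genes, with error bars for 95% exact binomial intervals. The ZNF genes of chromosome 19 have the tallest orange bar (40%) and the shortest blue bar (9.17%).

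A peak of the control list lay at 175 of the 240 genes (72.9%, against 81.9% of all genes) and a knockout peak at 201 (83.8%, against 79.8%). Only knockout peaks lay at 32 genes (13.3%), compared with 2.26% of all genes and 1.98% of the other chromosome 19 genes. Control peaks alone lay at 6 (2.50%, against 4.36% of all genes). Most of these genes carried few peaks, with a single control peak at 86 and a single knockout peak at 112, and at most 8 in either list. The middle 50% of the genes had 0 to 2435.75 control bases and 597.5 to 3640.25 knockout bases.

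The peaks themselves differed in width more than in number. ZNF windows held 276 control and 297 knockout peaks, with median widths of 957 and 1686 bases. In the windows of other chromosome 19 genes the medians were 1518.5 and 1660 bases. Of the knockout peaks in ZNF windows 25.3% (20.4 to 30.6) overlapped no control peak, and of the control peaks 10.5% (7.15 to 14.7) overlapped no knockout peak. For the other chromosome 19 genes the order was the opposite, 10.9% (9.46 to 12.6) and 19.1% (17.4 to 21.0). Over all peaks of the lists these shares were 21.3% (knockout) and 28.2% (control). The knockout share in ZNF windows was thus near that of all peaks, and the control share was below it. Peaks at ZNF genes were weaker than at their neighbours on the chromosome. The median −log10 q, the authors' value for a peak against its own input, was 3.09 (control) and 3.95 (knockout) within ZNF windows. It was 4.28 and 4.70 at the other genes. Over all peaks of the lists it was 3.18 and 3.77, near the values in ZNF windows.

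The lists also differ in their shortest peak, 312 control against 361 knockout bases, and in the smallest gap between peaks, 1249 against 1445. With both lists brought to the same merging distance and the same shortest peak, 85 ZNF genes were higher (35.4%, against 18.4% of all genes) and 27 lower (11.2%, against 32.0%). With peaks of −log10 q of at least 5 only, 52 were higher (21.7%), which is under the background of 26.7%, and 13 were lower (5.42%, against 17.7%). The other chromosome 19 genes were then also higher in 21.7%, and lower in 19.1%. At that cutoff 145 of the 240 genes had no peak in either list. With peaks of at least 4-fold enrichment 14 were higher (5.83%, against 14.5%) and 7 lower (2.92%, against 19.4%), and 198 had no peak. The share of higher genes was thus above the background only when weaker peaks were counted. With so many genes left without a peak, low shares at these cutoffs in either direction say little about the ZNF genes. Among those that were called, higher genes outnumbered lower ones at each cutoff. At the q cutoff this was also so over all genes and the other chromosome 19 genes. The knockout list then held 27571 peaks in all and the control list 23884. At the fold cutoff lower genes outnumbered higher ones over all genes (19.4% and 14.5%). A control peak with a −log10 q of 5 or more lay at 21.7% of the ZNF genes (51.3% of all) and such a knockout peak at 34.6% (56.1% of all). For peaks of 4-fold or more these shares were 10% (36.2% of all) and 13.3% (32.2% of all).

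With all peaks, other rules for a call left the ZNF genes on the same side of the background. A difference of 500 bases or more was higher in 48.8% (27.0% of all genes) and lower in 16.2% (38.8%). At 2000 bases the shares were 18.3% higher (11.0%) and 3.75% lower (18.7%). Within the records alone, without the flanks, 26.2% were higher (14.9%) and 7.50% lower (24.5%).

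The genes with the largest excess of knockout coverage were spread over several clusters. ZNF83 in cluster 8 (chromosome 19, 52612377 to 52690496), had 8 peaks in each list, covering 19154 control and 27755 knockout bases, the most of any ZNF gene in either list. At ZNF675, whose product dampens TRAF6 signalling (23652801 to 23687212), no control peak was called and a single knockout peak of 7817 bases ran across the start site. ZNF91, which encodes a repressor of SVA and other retroelements (23305004 to 23395471), had 2 control peaks covering 1530 bases and 3 knockout peaks covering 9264. These genes show 3 forms of difference: more bases under as many peaks, a peak called in the knockout list alone, and short control peaks against long knockout ones.

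ZNF577 (51804442 to 51887951) had 552 control and 8161 knockout bases, and ZNF841 in the same cluster had 0 and 6476 in 4 knockout peaks. ZNF569 and ZNF570, which lie head to head, shared the same 2 knockout peaks covering 5144 bases, with no control peak. ZNF808 had 4606 and 9537 bases, ZNF44 had 2677 and 7185, and ZNF101 had 3077 and 7085. At ZNF536, a regulator of neuronal differentiation that lies apart from the clusters, a control peak covered 475 bases and 3 knockout peaks covered 4567. Counting only peaks at or above a −log10 q of 5, ZNF91 kept 0 control and 8127 knockout bases and ZNF577 kept 0 and 8161. ZNF675, ZNF569 and ZNF536 had no peak of that strength in either list.

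The 22 genes with less knockout coverage were led by ZNF787, and beyond it the differences were smaller than at the genes above. ZNF787, which encodes a zinc finger protein without a KRAB domain (56087366 to 56121295), had 13277 control and 4570 knockout bases, in 3 peaks each. Its widest control peak covered 9068 bases and its widest knockout peak 2776. ZNF627 had 5670 and 2746 bases, ZNF600 had 5244 and 2544, and ZNF446 had 4470 and 1967. ZNF581 had 7403 and 5090 bases. ZNF444, a SCAN domain gene, had 3200 and 814, and ZNF878 had 2832 and 576. ZNF473, whose product takes part in histone pre-mRNA processing, had 3999 and 1999, and ZNF587 had 2243 and 367. At ZNF784 a control peak covered 2032 bases and no knockout peak was called. For peaks at or above a −log10 q of 5 the sign was reversed at ZNF627 (0 control and 2746 knockout bases) and ZNF878 (0 and 576), and at a fold of 4 or more also at ZNF787 (0 and 2776) and ZNF473 (0 and 811).

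**Figure D2:**
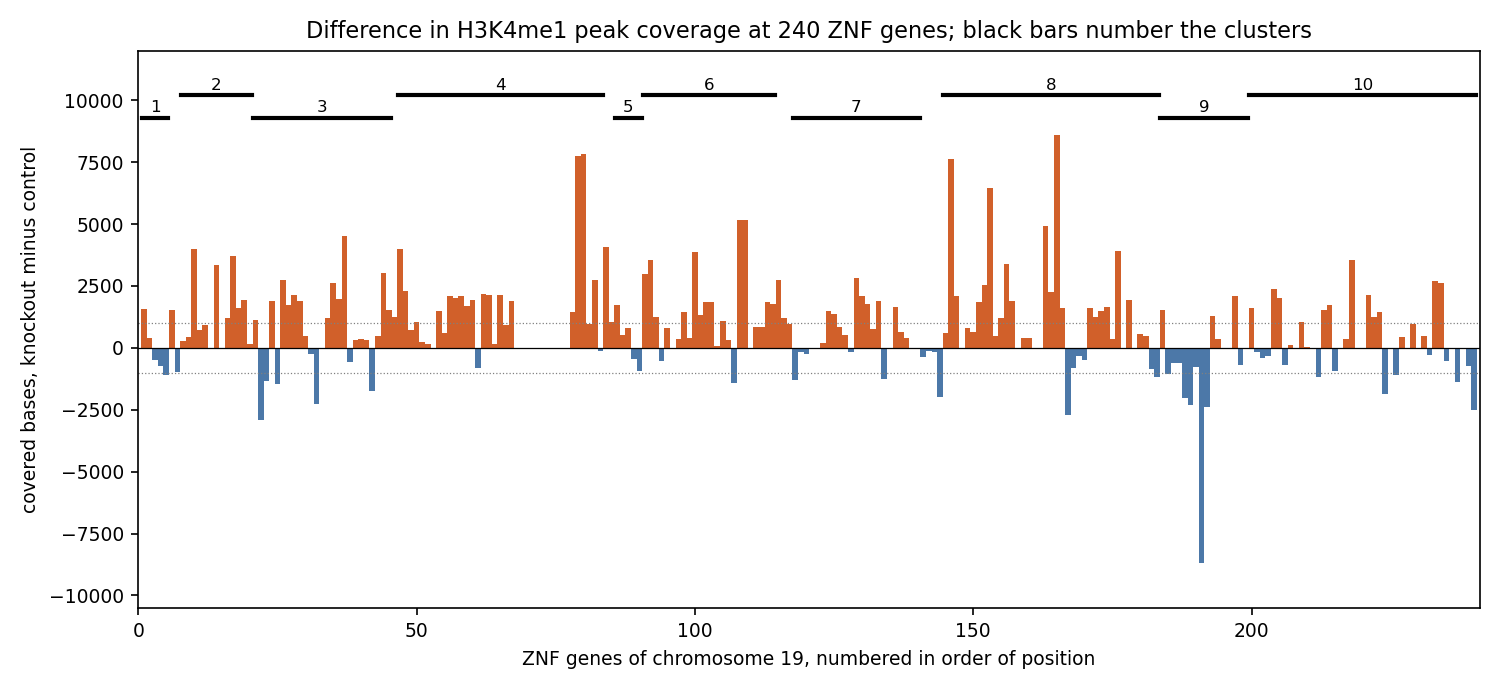
Difference in covered bases, knockout minus control (y axis), for each of the 240 ZNF genes in their order along chromosome 19 (x axis), with dotted lines at 1000 bases in either direction and black bars numbering the 10 clusters. Orange bars (higher in knockout) prevail in clusters 2 to 8, a run of 10 genes in cluster 4 shows no bar, and the longest blue bar is ZNF787 (13277 control and 4570 knockout bases) in cluster 9.

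Genes at most 500000 bases apart were joined into clusters, which gave 10 clusters of at least 5 genes holding 228 of the 240. In 8 of the 10, the knockout list covered more bases. The highest ratio was that of the pericentromeric group, cluster 4 (ZNF101 to ZNF254, 19.7 to 24.1 Mb, 37 genes), with 26691 control and 76477 knockout bases, a ratio of 2.87. For peaks of 4-fold or more this order did not hold, with ratios of 4.15 in cluster 8, 2.28 in cluster 10 and 2.17 in cluster 4. In cluster 4, 17 genes were higher and 0 lower. Next came cluster 2 (ZNF414 to ZNF846, 8.51 to 9.79 Mb) with 15876 and 34249 bases and cluster 6 (ZNF565 to ZNF573, 36.2 to 37.8 Mb) with 20511 and 42251. In cluster 2, 6 of 13 genes were higher and 0 lower, and in cluster 6, 13 of 24 were higher and 1 was lower. Cluster 8 (ZNF175 to ZNF331, 51.6 to 53.6 Mb, 39 genes) had 65721 and 113407 bases, with 18 genes higher and 2 lower.

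Coverage differed less in the other clusters. Cluster 3 (ZNF653 to ZNF791, 11.5 to 12.6 Mb) had 39016 control and 52047 knockout bases, with 12 of 25 genes higher and 5 lower. Cluster 7 (ZNF575 to ZNF180, 43.5 to 44.5 Mb) had 35777 and 43529, with 7 of 23 higher and 2 lower. Cluster 10 (ZNF264 to ZNF446, 57.2 to 58.5 Mb), the largest with 41 genes, had 69118 and 82445, with 12 higher and 5 lower. Cluster 5 (ZNF302 to ZNF792, 34.7 to 35.0 Mb) had 13522 and 15186 bases over 5 genes and cluster 1 (ZNF554 to ZNF77, 2.82 to 2.94 Mb) had 9627 and 9286, also over 5. With a common merging distance the ratio was 1.02 in both cluster 5 and cluster 7. Among the 12 genes outside the clusters 6 were higher and 1 lower.

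Cluster 9 (ZNF628 to ZNF835, 55.5 to 56.7 Mb) had the lowest ratio, 0.688, with, 40071 control and 27588 knockout bases, and it was divided into 2 stretches after the values were seen. From ZNF628 to ZNF444 (55.5 to 56.2 Mb), a stretch with short genes such as ZNF580 and ZNF581 that lack a KRAB domain, 5 of 9 genes were lower and 1 was higher, with 37851 and 22301 bases. From ZNF582 to ZNF835 (56.4 to 56.7 Mb), 2 of 7 were higher and 0 lower, with 2220 and 5287 bases. ZNF470 in the second stretch had no control peak and 2110 knockout bases. Counting peaks of 4-fold or more, the whole cluster had the opposite sign, with 5552 control and 6354 knockout bases. Counting peaks at or above a −log10 q of 5, the deficit was larger, with 22272 control and 6354 knockout bases, a ratio of 0.285.

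Between 20 and 25 Mb the control list held 24 peaks over 26891 bases and the knockout list 49 over 101128, a ratio of 3.76. This ranked 2 among the genome's 570 regions of 5 Mb that held 40 or more peaks over both lists. The other 11 regions of chromosome 19 had ratios of 0.787 to 1.14. The region at 20 to 25 Mb was picked with earlier results of these data known, so its rank is a description only. Of the 32 ZNF genes centred there, 14 were higher, 0 were lower and 10 had only knockout peaks. The ZNF windows did not hold all of the excess, since 4803 control and 37787 knockout bases lay outside them.

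The region divided into 3 stretches, again set after the values were seen. From ZNF486 to ZNF43 (20.2 to 21.9 Mb), all 14 genes had a knockout peak, 7 of them no control peak, and 10 were higher. Many of these genes carried a single knockout peak of like coverage and no control peak, as at ZNF66 (2013 bases), ZNF85 (2114), ZNF429 (2130), ZNF738 (2147) and ZNF708 (2160). The next 10 genes, from ZNF208 to ZNF730 (21.9 to 23.1 Mb), had no peak in either list. From ZNF724 to ZNF254 (23.2 to 24.1 Mb), 4 of 6 were higher, with 8418 control and 29005 knockout bases. Here lie ZNF91 and ZNF675, and also ZNF726 with 0 and 2754 bases. ZNF254, the gene of cluster 4 with the most control coverage, had 5279 and 5168 bases.

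The input background implied by the authors' pileup and fold also differed between the lists along the chromosome. It was available only at called peaks, which are not the same in the 2 lists. Its knockout to control ratio, divided by that over the genome, was 1.36 to 1.46 in the 3 regions between 10 and 25 Mb and 0.649 to 0.741 in the 3 regions from 45 Mb on. In cluster 4 it was 1.47 and in cluster 3 it was 1.55. The part of the implied input in the coverage differences was not tested in any cluster. In clusters 2 and 6, with ratios of covered bases of 2.16 and 2.06, the implied input ratio was 0.986 in each. In cluster 8, where coverage was 1.73 times as high in the knockout list, it was 0.733. In cluster 9, with the lower coverage, it was 0.764, and in cluster 10 it was 0.629. Without the genes at 10 to 25 Mb, 66 of 177 ZNF genes were higher (37.3%) and 17 lower (9.60%), against 20.2% and 30.0% of all genes. For peaks at or above a −log10 q of 5 these shares were 19.2% and 6.78%, against 26.7% and 17.7% of all genes. The 63 ZNF genes at 10 to 25 Mb were then higher in 28.6% and lower in 1.59%.

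**Figure D3:**
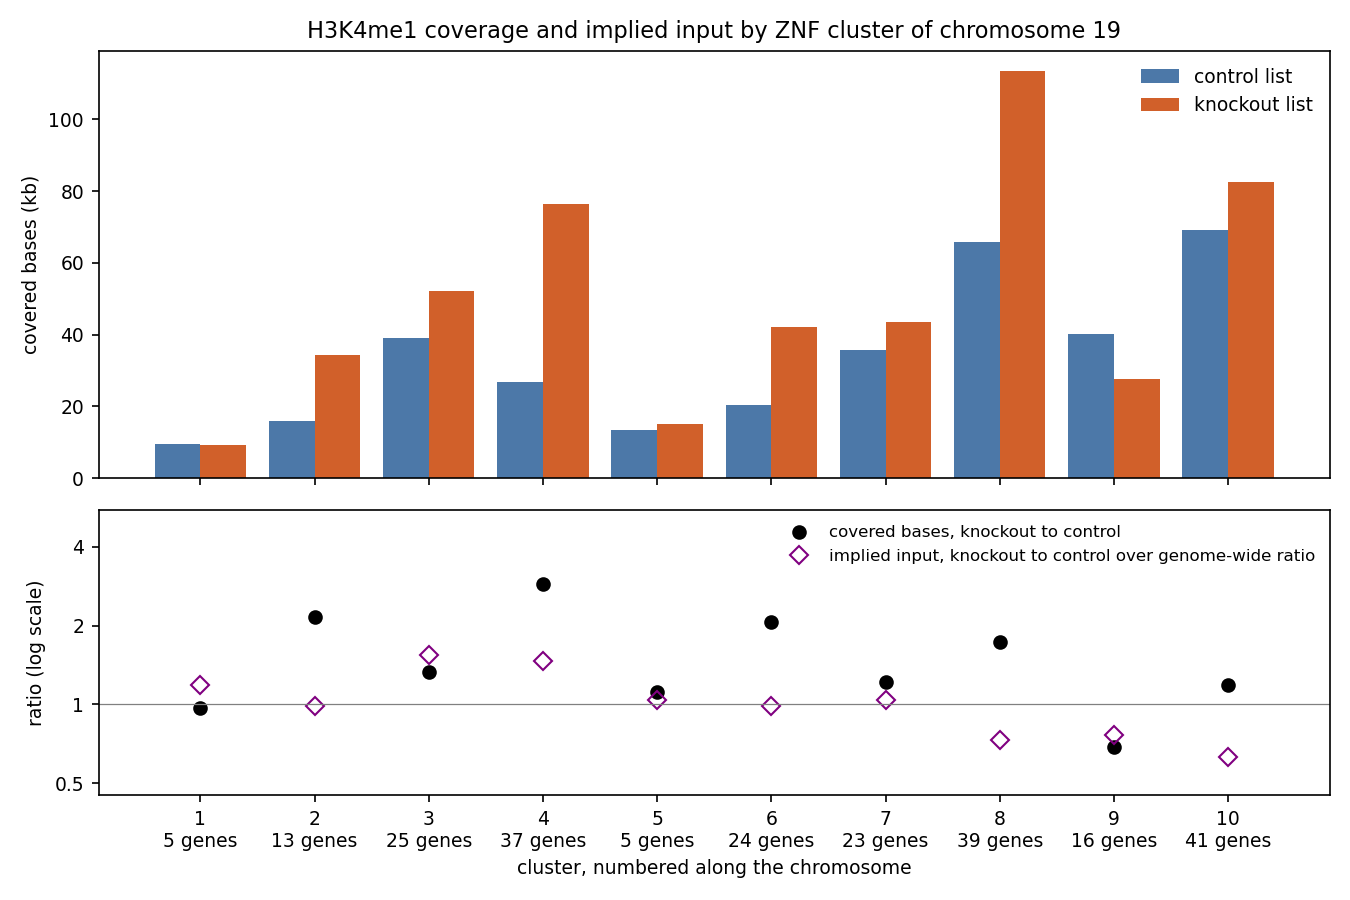
Upper panel, bases under control (blue) and knockout (orange) peaks in the 10 clusters, numbered along the chromosome (x axis, with genes per cluster), in kb. Lower panel, on a log axis, the knockout to control ratio of covered bases (dots) and of the implied input over its genome-wide ratio (diamonds): in cluster 4 both lie above 1 (2.87 and 1.47), while in cluster 8 they lie on opposite sides (1.73 and 0.733).

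Coverage at these genes lay largely near their start sites. RefSeq gave a start for 210 of the 240 genes, and the first listed one was used. Of all covered bases in their windows, 51.1% (control) and 52.9% (knockout) lay within 2000 bases of the start, a section that made up 10.1% of the windows. For the other chromosome 19 genes these shares were 25.1% and 29.1%, with 12.7% of the window. Within 2000 bases of the record end, where the finger-coding exon usually lies, 2.28% (control) and 3.43% (knockout) of bases were covered, against 11.0% and 9.80% at the other genes. In the rest of the window 2.51% and 3.58% were covered, against 12.8% and 11.2%. In the section around the start, 23.1% and 35.8% were covered.

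In the control list, coverage around ZNF start sites formed a peak on either side with a dip between. It was 25.7% of genes 500 bases upstream, 18.1% at 100 bases downstream and 47.6% at 1100 bases downstream. In the knockout list the dip was shallower, with 42.4%, 41.9% and 56.7% at the same positions. Farther out the lists differed by fewer genes, with 15.2% and 15.7% at 2100 bases downstream, 4.76% and 8.10% at 3100 bases downstream, 5.71% in both at 3900 bases upstream and 2.38% and 4.76% at 5900 bases upstream.

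At the start base itself, 38 of 210 genes (18.1%, 13.1 to 24.0) lay under a control peak, against 14.1% of all genes with a listed start, and 88 (41.9%, 35.2 to 48.9) under a knockout peak, against 24.2%. The start lay under a knockout peak alone at 61 genes (29.0%, 23 to 35.7), among them ZNF675, ZNF91, ZNF317, ZNF121, ZNF44, ZNF808 and ZNF551. For the other chromosome 19 genes this share was 14.5% (12.3 to 16.8) and for all genes 13.6% (13.1 to 14.1). A control peak alone covered the start at 11 genes, including ZNF878, ZNF784 and ZNF587, or 5.24% (2.64 to 9.18), against 5.64% (4.28 to 7.28) of the other chromosome 19 genes and 3.48% (3.20 to 3.78) of all genes. At the ZNF genes of other chromosomes, 11.8% of 195 starts lay under a control peak and 29.7% under a knockout peak. A knockout peak alone lay at 39 of these starts. Its interval, 14.6 to 26.3%, overlaps that of the chromosome 19 ZNF genes. More starts under knockout than control peaks was thus also the pattern over all genes and at the ZNF genes of other chromosomes. With a common merging distance the chromosome 19 ZNF shares were 24.3% and 41.9%, and those of ZNF genes elsewhere 18.5% and 29.7%. Those of the other chromosome 19 genes were 26.3% and 29.0%, and those of all genes 18.8% and 24.2%. The chromosome 19 ZNF difference was thus smaller, but present, once the shortest peak and the merging distance were the same in both lists. For peaks at or above a −log10 q of 5, ZNF starts lay under control peaks in 3.33% and under knockout peaks in 14.8%, against 5.76% and 13.0% of all genes and 8.51% and 18.4% of the other chromosome 19 genes. For peaks of 4-fold or more they were 1.43% and 4.76%, against 3.24% and 4.31% of all genes. At these cutoffs the knockout share at ZNF starts was near the background. Starts of ZNF genes on other chromosomes had 3.08% and 12.8% at the q cutoff and 1.54% and 2.05% at the fold cutoff.

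**Figure D4:**
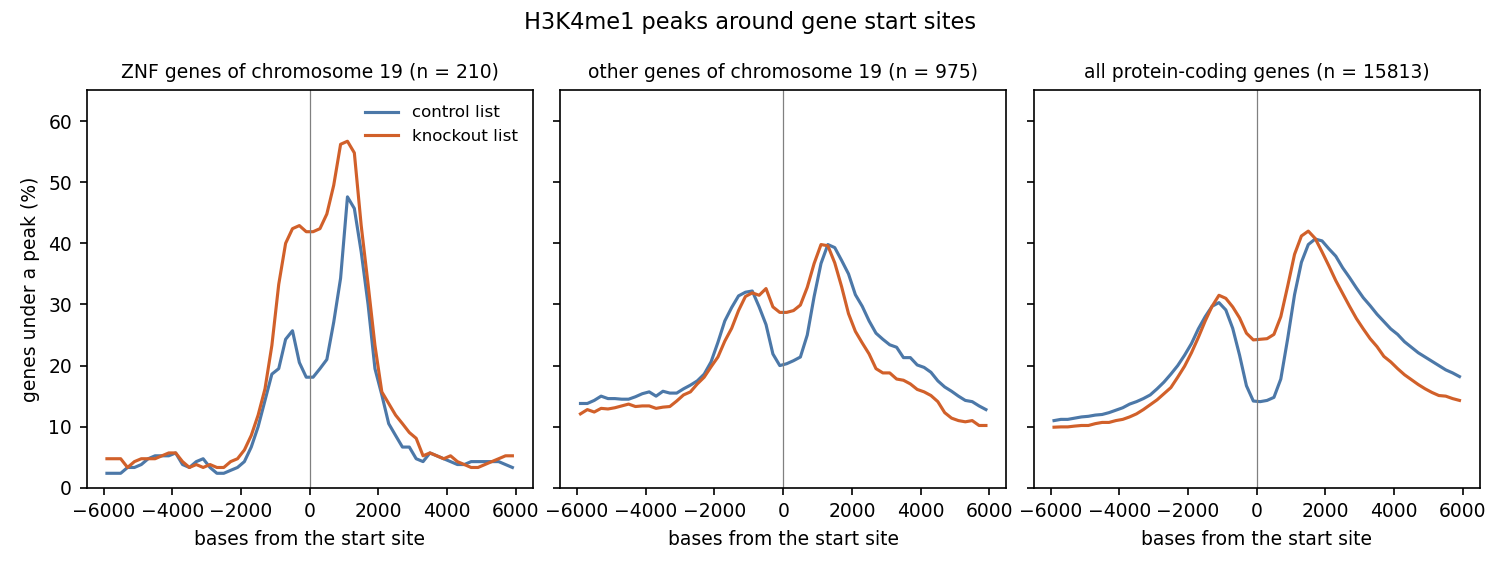
Percent of genes under a peak (y axis) by distance from the start site in bases (x axis, negative upstream, in bins of 200 bases), for the control (blue) and knockout (orange) lists. At the ZNF genes the knockout line lies above the control line through the start (41.9% against 18.1% at 100 bases downstream), and at the other 2 sets the gap there is smaller.

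Because coverage in both lists lay largely near start sites, promoter sequences were examined in RefSeq's GRCh38.p14 table, from 250 bases before to 50 after the start. The sequences of 5 genes are shown 5′ to 3′ on the gene's strand. ZNF675 (chr19:23687163-23687462, minus strand), ZNF91 (chr19:23395422-23395721, minus) and ZNF708 (chr19:21329361-21329660, minus) are related copies in cluster 4, and ZNF551 (chr19:57681727-57682026, plus) lies in cluster 10. The starts of these 4 lay under a knockout peak alone. ZNF787 (chr19:56121246-56121545, minus), the gene with the largest deficit, had its start under no peak. Capitals mark CCGGAAG, a core recognised by ETS-family transcription factors, or its reverse complement.
ZNF675: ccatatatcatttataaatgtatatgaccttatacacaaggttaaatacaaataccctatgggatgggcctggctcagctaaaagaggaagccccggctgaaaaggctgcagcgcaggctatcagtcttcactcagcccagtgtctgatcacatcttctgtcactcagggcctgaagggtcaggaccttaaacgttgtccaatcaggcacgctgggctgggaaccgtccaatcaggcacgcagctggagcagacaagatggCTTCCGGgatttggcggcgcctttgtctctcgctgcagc
ZNF91: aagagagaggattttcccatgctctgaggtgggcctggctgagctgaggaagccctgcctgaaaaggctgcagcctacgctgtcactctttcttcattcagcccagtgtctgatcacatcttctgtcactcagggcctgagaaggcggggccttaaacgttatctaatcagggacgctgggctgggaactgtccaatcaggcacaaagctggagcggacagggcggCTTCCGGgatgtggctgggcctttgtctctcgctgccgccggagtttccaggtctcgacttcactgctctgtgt
ZNF708: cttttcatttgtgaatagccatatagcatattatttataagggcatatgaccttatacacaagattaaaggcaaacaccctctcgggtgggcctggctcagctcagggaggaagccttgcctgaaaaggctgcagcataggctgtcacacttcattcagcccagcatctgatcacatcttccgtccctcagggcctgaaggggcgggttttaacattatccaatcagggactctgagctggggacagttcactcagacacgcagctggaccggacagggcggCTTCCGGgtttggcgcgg
ZNF551: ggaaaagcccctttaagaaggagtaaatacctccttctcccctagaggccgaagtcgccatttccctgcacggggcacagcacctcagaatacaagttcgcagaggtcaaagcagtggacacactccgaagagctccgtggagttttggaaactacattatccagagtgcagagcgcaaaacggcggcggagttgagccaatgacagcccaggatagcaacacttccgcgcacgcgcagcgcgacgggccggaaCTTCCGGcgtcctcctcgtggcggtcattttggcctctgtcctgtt
ZNF787: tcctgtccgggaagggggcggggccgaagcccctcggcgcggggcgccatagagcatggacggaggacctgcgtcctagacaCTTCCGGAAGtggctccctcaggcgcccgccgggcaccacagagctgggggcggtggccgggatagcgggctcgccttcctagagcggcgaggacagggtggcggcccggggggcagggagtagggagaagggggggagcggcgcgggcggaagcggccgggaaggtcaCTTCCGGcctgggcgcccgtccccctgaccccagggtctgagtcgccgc

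ZNF675 and ZNF91 shared an unbroken run of 43 bases, and ZNF675 and ZNF708 one of 19. The marked core occurred once in each of the first 4 promoters and 3 times in that of ZNF787, where matches on the 2 strands overlap. Among the 4 motifs searched on both strands, chosen with the results known, CCGGAAG was present in 93 of 210 ZNF promoters (44.3%), against 13.4% of the other chromosome 19 promoters and 14.2% of all. Matches at ZNF genes clustered near the start, 77.1% within 50 bases of it, against 55.7% over all promoters. CCAAT was present in 52.9%, against 36.3% of all. AAGATGG, the core of the YY1 motif, was present in 7.62% (6.40% of all), and GCGCATG, a part of the NRF1 motif, in 4.29% (5.87% of all). Among the clusters with over 20 promoters, CCGGAAG was present in 72.4% of 29 in cluster 4, 65.8% of 38 in cluster 10, 62.5% of 32 in cluster 8, 21.7% of 23 in cluster 6 and 8.33% of 24 in cluster 3. Many of these promoters are copies of one another and are not independent.

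CCGGAAG was present in 49.2% of the 61 promoters whose start lay under a knockout peak alone, in 33.3% of the 27 under both lists, in 44.1% of the 111 under neither and in 45.5% of the 11 under a control peak alone. The median number of CpG dinucleotides was 20 in the first 3 of these classes, 23 in the last and 22 over all promoters.

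Genes without a peak in either list numbered 33, or 13.8%, near the 15.8% of all genes. Beside the 10 neighbours in cluster 4 they included ZNF154, ZNF671, ZNF132, ZNF135 and ZNF134 in cluster 10, ZNF667 and ZNF471 in cluster 9, ZNF382 in cluster 6 and ZNF177 in cluster 2.

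The 3 strongest peaks of each list at these genes all overlapped a peak of the other list. In the knockout list they lay at ZNF792 (−log10 q 21.5, with 7.91 for the strongest control peak there), ZNF653 (13.4 and 9.17) and ZNF430 (11.6 and 6.59). In the control list they lay at ZNF628 (13.8, with 8.57 in the knockout list), ZNF586 (13.3 and 3.81) and ZNF584 (13.3 and 9.45). These values rank peaks within a list and are not compared between lists.

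Chromosome 19 zinc finger genes under the symbols ZFP, ZSCAN, ZIM or ZIK were few. They were taken by symbol alone, whatever their type of zinc finger, and include ZFP36 (6272 control and 6919 knockout bases). Of 12, 4 were higher (33.3%, 9.92 to 65.1) and 1 was lower (8.33%, 0.211 to 38.5), and 4 had no peak. Both intervals hold the shares over all genes, 20.2% and 30.0%. ZFP82, within the span of cluster 6, had 623 control and 6510 knockout bases, ZFP14 beside it had 585 and 2176, and ZSCAN4, an early embryonic gene, had 613 and 3575. ZSCAN22 had 4889 and 3127.

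Genes for the partners of KRAB zinc finger proteins were examined beside the ZNF genes. Of 25 genes for TRIM28, SETDB1 and HP1 complexes, NuRD, the HUSH complex and H3K9 methylation, 4 were higher (16.0%, 4.54 to 36.1) and 12 lower (48.0%, 27.8 to 68.7), with a median difference of -844 bases. Both intervals hold the shares over all genes, 20.2% and 30.0%, so a list of this size does not set these genes apart from the background. TRIM28, the co-repressor that KRAB domains bind, had 4859 control and 3853 knockout bases, and SETDB1, the H3K9 methyltransferase it recruits, had 2892 and 3702. The HP1 genes went in different directions, with CBX1 at 10618 and 4734, CBX3 at 4082 and 5492, and CBX5 at 15483 and 15126. Histone deacetylase gene HDAC2 had 14688 and 7832 bases. Of the HUSH complex genes, TASOR had 5322 and 8141, PPHLN1 had 12837 and 9923 and MPHOSPH8 had 3238 and 3738. ZNF274, a ZNF gene of cluster 10 whose product brings SETDB1 to the 3′ ends of ZNF genes, had 776 and 506 bases.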

How the data were processed

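Members, lists, motifs and stretches were chosen with earlier results of these data known. The build hg38 and the tools MACS2 2.2.6 and Bowtie2 2.3.5.1 come from the submitters' processing notes. The sources used here give neither the settings nor how the 2 replicates entered a call, so a list was taken as pooled. Columns deposited for every peak are, per the file headers, its length, its pileup (a signal of stacked fragments), its fold enrichment over input and its −log10 q, never under 1.01. The implied input was (pileup + 1) / fold − 1, assuming a MACS2 pseudocount of 1, as the median over peaks.

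Peaks on chromosomes 1 to 22 and X and the RefSeq GRCh38.p14 gene table were used (Python 3.11.15, pandas 2.3.3, scipy 1.17.1), with no filter on low values. Coverage counts were tested on simulated peaks. The common merging joined peaks with at most 1444 bases between them and dropped those under 361. Of all genes, 15813 had a listed start. Genes were named by a rule: the 10 largest differences in each direction, skipping overlapping windows, the extremes of each cluster, up to 5 genes with peaks in a single list and the 3 genes of highest −log10 q per list. Some were left out for length, and other genes were named as examples after their values were seen.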

Additional observations from a re-analysis of the deposited data

How the results depend on the processing

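No paired analysis was possible because each genotype had a single deposited list with no column per sample, and for the same reason no replicate could be left out. With peaks of −log10 q of at least 5, 52 ZNF genes were higher and 13 lower, 52 had a control and 83 a knockout peak, and 3.33% and 14.8% of starts lay under a control and a knockout peak (5.76% and 13.0% of all genes). The ratio of covered bases was then 1.80 over ZNF windows, 8.60 at 20 to 25 Mb and 0.988 over the other chromosome 19 genes, and it turned to 2.45 in cluster 1. With a fold of at least 4 the numbers were 14 higher, 7 lower, 24 with a control peak, 32 with a knockout peak, and 1.43% and 4.76% of starts (3.24% and 4.31% of all genes). The ratio over other genes was 0.703, and it turned to 0.534 in cluster 3, 0.802 in cluster 5 and 1.14 in cluster 9, and could not be computed in cluster 6, which had no control peak of that fold. With a common merging distance 24.3% of starts lay under a control peak. In the record alone 63 genes were higher, and the ratio of cluster 1 was 1.03. Calls at 500 bases gave 39 lower genes, or 16.2% (38.8% of all genes), and calls at 2000 bases gave 44 higher, or 18.3% (11.0%), and 9 lower, or 3.75% (18.7%). Among named genes called at 1000 bases, the difference, knockout minus control, turned at a −log10 q of at least 5 for ZNF554 (-436 bases), ZNF77 (1070), ZNF627 (2746), ZNF878 (576), ZNF284 (-346), ZNF227 (2627), ZNF628 (-5011) and ZNF586 (-1169). At a fold of at least 4 they turned for ZNF554 (-436), ZNF878 (576), ZNF473 (811), ZNF628 (-2045), ZNF787 (2776) and ZNF586 (-1169), with common merging for ZNF586 (-24), in the record alone for ZNF77 (334) and ZNF581 (450), and with 10000 bases on either side for ZNF552 (-761). Of named genes with smaller differences, ZNF431 (2171) and ZNF254 (2207) turned at the q cutoff, ZNF254 also at the fold cutoff (852) and with common merging (206), and ZNF414 in the record alone (-158). Ratios over 1.5 times away from those with all peaks, in the same direction, were 4.15 (cluster 8) and 2.28 (cluster 10) at the fold cutoff, and 2.35, 6.34, 5.72, 2.28, 2.83 and 0.285 (clusters 3, 4, 6, 7, 8 and 9) at the q cutoff. Cluster 1 had no knockout peak of 4-fold or more. Higher ZNF genes outnumbered lower ones in every alternative listed, and at the q cutoff this was also so over all genes (26.7% and 17.7%). The 2 cutoffs remove most peaks here, and otherwise the cause was not tested. The alternatives without the genes at 10 to 25 Mb and with any listed start were chosen after seeing the data. Depth is unknown, so a peak missing from a list is not an absence of the mark.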
